A study of Xenopus laevis with 28 samples.

Results

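The comparison set 3 libraries of blastula embryos at stage 8 of Nieuwkoop and Faber against 2 libraries of unfertilized eggs of the African clawed frog *Xenopus laevis*, 5 of the 28 libraries of a developmental series. The stage 8 group held 1 library of the clutch labelled Taira and 2 of the clutch labelled Ueno, the second of which belongs by its title to a later Ueno set and is called the second Ueno library here. The egg group held 1 library of each clutch. All were of the inbred J strain, had no treatment in the labels, and came from whole minced eggs or embryos. RNA was captured by its poly(A) tail and sequenced without strand on an Illumina HiSeq instrument. Values are TPM (a length-corrected share of each library's transcripts) for 45831 gene models. TPM values below run in the order Taira, Ueno and second Ueno for stage 8, then Taira and Ueno for the egg. The labels do not say how many eggs or embryos entered a library or whether the pair of Ueno libraries came from separate matings, so p-values measure the spread between these libraries, which may in part be technical.

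The frog egg carries a large store of mRNA made during oogenesis, and the first cleavages run on that store with little transcription. The nuclear genome is switched on broadly at the midblastula transition, which begins around stage 8. Before that point the embryo controls its stored messages mainly by lengthening or shortening their poly(A) tails, and a message with a short tail is captured poorly by oligo(dT). A change in tail length and a change in the amount of an RNA therefore cannot be told apart in these libraries. *X. laevis* is an allotetraploid whose genome keeps a long and a short set of chromosomes, so many genes have a pair of homeologous copies with the suffixes L and S.

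The 5 libraries differed in how evenly the RNA was spread over genes. At stage 8, 19088, 18606 and 18557 models reached 1 TPM, against 17233 and 14949 in the egg. 50% of all TPM came from 2009, 1700 and 1648 models at stage 8, against 844 and 570 in the egg. The median-of-ratios factors, which set the median model with at least 1 TPM in all 5 libraries (14341 models) to equal level, were 1.35, 1.21 and 1.2 at stage 8, against 0.86 and 0.63 in the egg. The rank correlation was 0.988 between the Ueno libraries of stage 8, 0.942 and 0.923 between these and the Taira library, and 0.900 between the eggs. The library labelled stage 40 Ueno, which was not compared here, had rank correlations of 0.976 and 0.902 with the Ueno and Taira eggs.

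The labels were checked against known genes. Of 91 models of early zygotic genes, which the embryo first transcribes around the midblastula transition, 31, 16 and 15 reached 1 TPM at stage 8, against 5 and 6 in the egg, and 68 and 63 did in the Taira and Ueno libraries of stage 9. Their summed level was 213, 122 and 136 TPM at stage 8, against 76.8 and 236 TPM in the egg, of which the homeobox gene not.L gave 60.4, 76 and 82 TPM at stage 8, against 61.2 and 214 TPM in the egg. The endoderm factor sox17b.1.L stood at 14.9, 2.48 and 2.28 TPM at stage 8, against 0 and 0 TPM in the egg. Markers of follicle cells, blood, connective tissue and epithelium were mixed. The genes fshr, lhcgr, cyp19a1, ptprc, wt1 and lum had at most 0.08 TPM in any copy and no globin passed 2.65 TPM, but keratins, vim.L and amh.S were present. Others reached low values: foxl2.S 1.52 and col3a1.L 1.79 TPM in the Ueno egg, and vim.S 1.25 TPM in the Taira egg. At stage 8, acta2.L reached 1.88 TPM in the second Ueno library and tagln.S 1.26 TPM in the Taira library. Of 45 models in that list 9 were tested and 1 was called, the epithelial keratin krt18.S, with 95.4, 141 and 206 TPM at stage 8, against 32.7 and 25.7 TPM in the egg. The not called keratin krt8.L had 394, 644 and 788 TPM at stage 8, against 768 and 1206 TPM in the egg. The not called krt18.L had 279, 445 and 523 TPM at stage 8, against 334 and 461 TPM in the egg. The summed level of the list was 928, 1428 and 1719 TPM at stage 8, against 1351 and 1907 TPM in the egg. Most of that sum came from the krt8 and krt18 models in every library, so it does not give the level of the other markers. The part of the list in the results was not tested. The not called vim.L, a mesenchymal filament gene, had 12.3, 16.6 and 13.1 TPM at stage 8, against 20.6 and 29.4 TPM in the egg, and amh.S, a hormone of gonadal support cells, had 15.6, 13.6 and 11.6 TPM at stage 8, against 6.98 and 3.51 TPM in the egg. The median log2 difference of the 9 was -0.18 in TPM and -0.72 after scaling.

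More models were higher than lower at stage 8 in TPM and after scaling, and the size of this excess depended on the scaling. Of 18945 models tested, 4362 were higher at stage 8 (23%) and 560 were lower (2.96%) at an adjusted p under 0.05 both in TPM as deposited and after median-of-ratios scaling (limma, Benjamini-Hochberg adjustment). Such models are described as called, risen or fallen below. In TPM alone 7149 were higher (37.7%) and 560 lower (2.96%), and after scaling 4362 were higher (23%) and 2466 lower (13%). The median log2 difference over all tested models was 0.88 in TPM, 0.30 after scaling and 0.02 (0.015) after quantile normalization, so a list is read below against these medians. After quantile normalization, which gives every library the same distribution, 2579 were higher (13.6%) and 2310 lower (12.2%). Scaling thus decided 2787 models that were higher in TPM only and 1906 that were lower only after it. These counts rest on factors from models of at least 1 TPM. With factors from models of at least 10 TPM, 6529 were higher under both scalings and 854 lower after scaling alone. In whole stage 8 embryos, the number of cells of a type and the RNA in each cell cannot be told apart.

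Most called models changed by over 2-fold, and their separation follows in part from choosing them by adjusted p in these same libraries. The median called-higher model averaged 23.3 TPM at stage 8 and 3.13 TPM in the egg. The median called-lower model averaged 40.3 TPM at stage 8 and 115 TPM in the egg. A change of over 2-fold under both scalings was shown by 4145 higher and 442 lower models, over 4-fold by 1605 and 106, and over 8-fold by 222 and 15. Among those higher, 808 were under 1 TPM in both eggs and 90 were listed at 0 in both. Among those lower, 26 were under 1 TPM in all 3 stage 8 libraries and 8 of these were listed at 0. The 808 passed the filter only through stage 8 and the 26 only through the eggs, so neither set could well be called the other way. With 3 stage 8 libraries and 2 eggs the filter is easier to pass through stage 8, so these counts are not comparable. The 808 are included in the 4362. All 4362 and 560 had the same direction within each clutch and did not overlap between the groups, as did 39.4% of all tested models upwards and 10.9% downwards. The L copies were called at rates of 22.6% higher and 3.21% lower, the S copies at 24.5% and 3.26%, and the 5394 unnamed models at 21.9% and 2.45%.

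With clutch as a replicate block, 7428 models were higher (39.2%) and 2256 lower (11.9%) under both scalings, and all 4362 and 560 kept their call. With the block and without the second Ueno library 5590 were higher and 1498 lower, and 4180 of the 4362 and 550 of the 560 kept their call. With the block and without the first Ueno library of stage 8 these were 5740 and 1773, with 4225 and 542 calls kept. In the fit that does not use the clutch, the calls needed both Ueno libraries of stage 8. There, without the Ueno library and again without the second Ueno library, 0 models were called under both scalings, although 4992 and 5094 had an unadjusted p under 0.05 under both and 2921 and 3150 stayed higher in TPM alone. In these fits 4328 and 4324 of the 4362 higher models and all 560 lower ones were tested and kept their direction. Their groups did not overlap, so their direction in TPM could not reverse when a library was left out. Without the Taira stage 8 library 2825 were higher and 328 lower, and without the Ueno egg 2573 and 567.

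**Figure D1:**
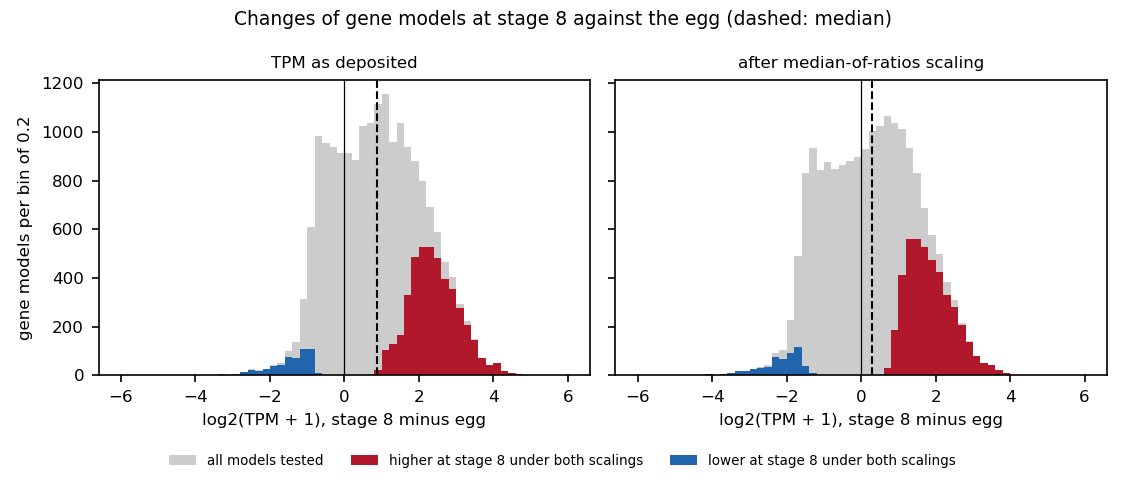
Number of gene models (vertical axis) by the difference in log2(TPM + 1), stage 8 minus egg (horizontal axis, bins of 0.2), in TPM as deposited (left) and after median-of-ratios scaling (right). Grey bars are all 18945 tested models, red bars the 4362 called higher and blue bars the 560 called lower under both scalings, and the dashed line is the median, at 0.88 on the left and 0.30 on the right.

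The 12 models that rose most among 2410 with a symbol and at least 10 TPM at stage 8 had varied functions. Here and below, log2 differences are of log2(TPM + 1), which understates changes of low models, and ± gives the standard error from limma. First was tgif1.L (Xelaev18031876m), a homeodomain corepressor of Smad signalling, with 50.2, 52 and 59.8 TPM at stage 8, against 0.67 and 0.30 TPM in the egg (log2 difference 5.22 ± 0.35 in TPM and 4.77 ± 0.33 after scaling). Second was cdt1.S (Xelaev18024859m), which loads the replicative helicase at origins, with 254, 164 and 172 TPM at stage 8, against 6.06 and 3.4 TPM in the egg (log2 difference 5.12 ± 0.36 in TPM and 4.44 ± 0.30 after scaling). Both copies of tp53bp2, whose product binds p53 family proteins, were among the 12, and tp53bp2.L (Xelaev18026271m) had 148, 129 and 126 TPM at stage 8, against 5.37 and 1.77 TPM in the egg. Its partner tp53bp2.S (Xelaev18028650m) had 154, 189 and 197 TPM at stage 8, against 8.7 and 4.65 TPM in the egg. In each of these 4 models every stage 8 library was far above either egg, although the rule for naming them already required groups that do not overlap.

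The AMPK-related kinase nuak2.L (Xelaev18012230m) had 91.9, 42.5 and 30.2 TPM at stage 8, against 1.09 and 0.63 TPM in the egg, the highest value being in the Taira embryos. The Cdk5 activator cdk5r2.S (Xelaev18047038m) had 104, 107 and 121 TPM at stage 8, against 4.93 and 1.79 TPM in the egg. The palmitoyltransferase family gene zdhhc13.L (Xelaev18021740m) had 67.3, 115 and 137 TPM at stage 8, against 5.82 and 1.45 TPM in the egg. In all 12 models the Ueno egg was lower than the Taira egg. The ubiquitin-domain gene ubtd2.L (Xelaev18017231m) had 67.7, 100.3 and 135 TPM at stage 8, against 9.08 and 0.69 TPM in the egg, and the ribosome biogenesis gene pwp1-like.S (Xelaev18019894m) had 75.8, 83.3 and 78.8 TPM at stage 8, against 4.24 and 1.16 TPM in the egg. Of the ubiquitin ligases, arih2.S (Xelaev18025928m) had 51.7, 64.2 and 78.3 TPM at stage 8, against 4.02 and 0.61 TPM in the egg. The other ligase, peli2.S (Xelaev18028489m), had 78, 69.5 and 81.4 TPM at stage 8, against 4.24 and 1.15 TPM in the egg. The Fringe glycosyltransferase lfng.S (Xelaev18047541m), which tunes Notch receptors, had 104, 82.4 and 71.2 TPM at stage 8, against 4.13 and 1.65 TPM in the egg. Adjusted p for the 12 ran from 0.00702 to 0.00898 in TPM and from 0.0116 to 0.0167 after scaling (limma).

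The 12 models that fell most among 394 eligible included genes of the centrosome and of mitosis. The centrosomal ubiquitin ligase trim37.S (Xelaev18015341m) had 15.5, 8.81 and 8.61 TPM at stage 8, against 193 and 189 TPM in the egg (log2 difference -4.05 ± 0.36 in TPM and -4.78 ± 0.34 after scaling). The mitotic kinase pbk.L (Xelaev18028391m) had 62.3, 53.2 and 76.7 TPM at stage 8, against 619.7 and 1125 TPM in the egg (log2 difference -3.70 ± 0.35 in TPM and -4.45 ± 0.45 after scaling). Aurora A, the kinase of centrosome maturation and of oocyte meiosis, fell in aurka.L (Xelaev18043488m) with 81.5, 91.4 and 76.5 TPM at stage 8, against 615 and 1751 TPM in the egg. These 3 differed in how far the eggs lay apart: trim37.S was nearly level in both, while the Ueno egg held far more aurka.L than the Taira egg. Both copies of cep152-like, named for a scaffold of centriole duplication, fell, cep152-like.S (Xelaev18020615m) with 12.6, 4.9 and 2.72 TPM at stage 8, against 136 and 28.8 TPM in the egg. Its partner cep152-like.L (Xelaev18018231m) had 29.6, 11.3 and 7.43 TPM at stage 8, against 249 and 52.6 TPM in the egg.

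Both copies of arl6ip1, which shapes the membrane of the endoplasmic reticulum, fell as well. The L copy arl6ip1.L (Xelaev18045200m) had 3.52, 2.59 and 2.1 TPM at stage 8, against 62.3 and 37.5 TPM in the egg, and arl6ip1.S (Xelaev18047521m) had 4.98, 4.62 and 3.78 TPM at stage 8, against 46.6 and 83.2 TPM in the egg. The ubiquitin ligase of replication fork repair, rfwd3.L (Xelaev18022810m), had 24.2, 37.2 and 29.3 TPM at stage 8, against 204 and 366 TPM in the egg. In all of these the lowest egg lay above the highest stage 8 library, which the rule for naming them required. The other 4 carry symbols without a gene name. Of these, LOC100489670.L (Xelaev18011946m) had 13.7, 5.63 and 6.48 TPM at stage 8, against 129 and 131 TPM in the egg, and Xetrov90001894m.L (Xelaev18006543m) had 96, 45.1 and 44.8 TPM at stage 8, against 819 and 525 TPM in the egg. Next, Xetrov90023592m.L (Xelaev18045213m), had 33.6, 12.7 and 11 TPM at stage 8, against 293 and 99.4 TPM in the egg, and Xetrov90010211m.S (Xelaev18024486m) had 34.3, 27.5 and 23.3 TPM at stage 8, against 248 and 267 TPM in the egg. Adjusted p for the 12 ran from 0.00702 to 0.029 in TPM and from 0.0116 to 0.0165 after scaling (limma).

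**Figure D2:**
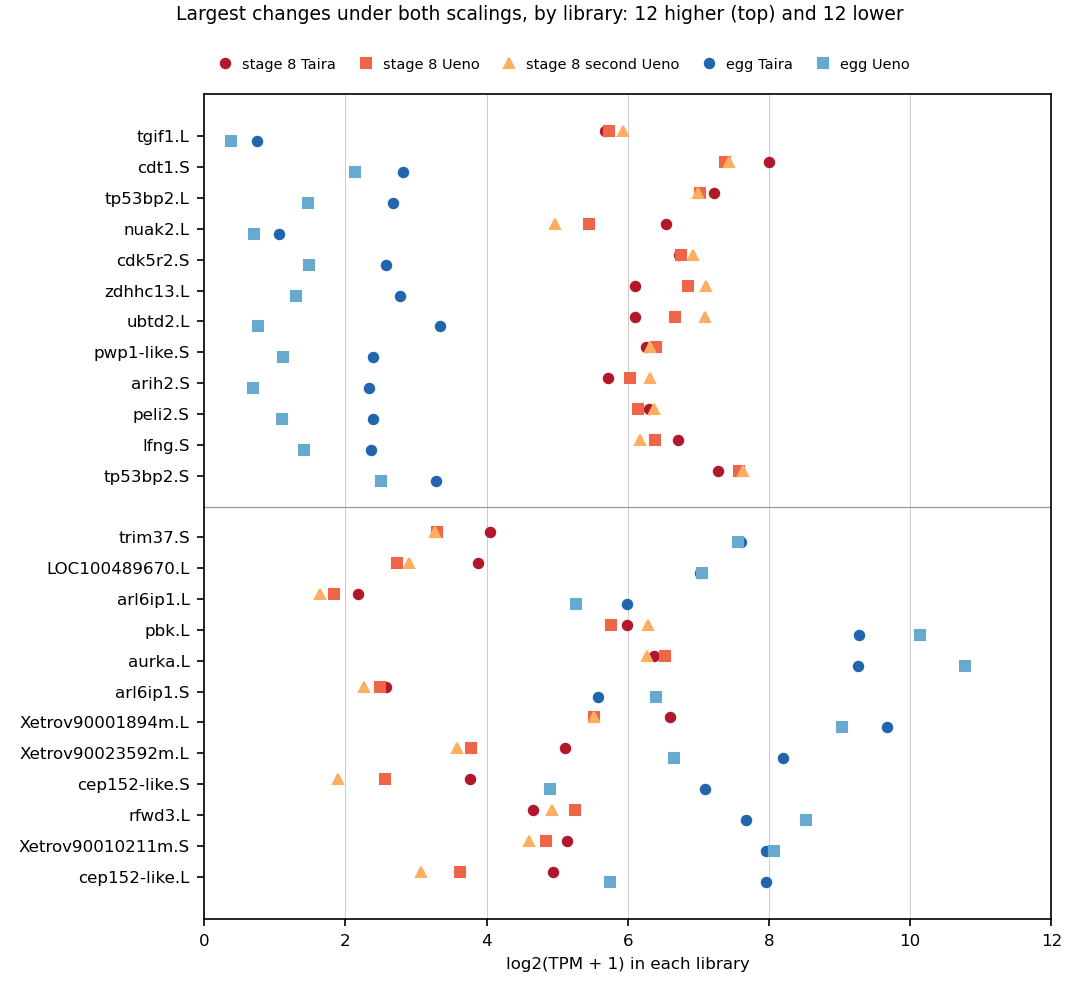
Level in each library (horizontal axis, log2(TPM + 1)) of the 12 models that rose most and the 12 that fell most under both scalings (rows). Red to orange points are the 3 stage 8 libraries and blue points the 2 eggs. In every row the stage 8 points lie apart from the egg points, as the rule for choosing these models required. At the top, tgif1.L had 50.2 to 59.8 TPM at stage 8, against at most 0.67 TPM in the egg.

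The 32 function lists below are described by their counts of calls under both scalings, then with the clutch block and after quantile normalization (quantile-normalized), and by their median log2 difference. Shares of all tested models were 23% higher and 2.96% lower under both scalings, 39.2% and 11.9% with the block, and 13.6% and 12.2% quantile-normalized. No test of a list was made, and a share near that of all models is no result about a list. Of 59 tested models for mitotic kinases and the spindle 18 fell (30.5%, against 2.96% of all models) and 12 rose (20.3%), or 26 and 20 with the block, 15 and 12 quantile-normalized. The median was 0.04 in TPM and -0.71 after scaling. Those that fell were pbk.L, aurkb.L, both copies of aurka, plk1, plk4, kif11, mad2l1 and incenp, and 1 copy of casc5, ncapd2, ndc80 and kif2c. They include the kinases Plk1, Plk4 and Aurora A and B, the motor kinesin-5 (kif11) and the checkpoint protein Mad2. The motor kif11.L had 73.9, 35.4 and 22.5 TPM at stage 8, against 338 and 289 TPM in the egg, and kif11.S had 135, 71.9 and 59.2 TPM at stage 8, against 608 and 508 TPM in the egg.

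Models that rose in the same list included genes of the central spindle, kinetochore and chromosome condensation. They were both copies of racgap1 and prc1, with ska1.L, ska3.L, cenpf.L, dlgap5.S, nusap1.L, ncapg.L, ncaph2.L and kifc1.L. The centralspindlin subunit racgap1.L, needed for cytokinesis, had 364, 399 and 328 TPM at stage 8, against 36.6 and 12.5 TPM in the egg. Its homeolog racgap1.S had 67.7, 78.2 and 70.0 TPM at stage 8, against 5.62 and 1.89 TPM in the egg. The summed level of the whole list was 8179.8, 8226 and 7864 TPM at stage 8, against 15138 and 19078 TPM in the egg, lower at stage 8 in every library under both scalings. A permutation of 2 against 3 libraries cannot give a p below 0.1, so no sum was tested. Of the other lists, 7 had a sum that was lower at stage 8 in every library under both scalings, given with each list, and 1 a sum that was higher. A sum weighs abundant models most, so it can be lower at stage 8 where more models of the list rose than fell.

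Of 50 tested models for cyclins, Cdks, Cdc25 and their regulators, 16 rose (32%) and 7 fell (14%), or 21 and 17 with the block, 15 and 4 quantile-normalized. The 7 were both copies of cdk1, cdk2 and ccne1, the catalytic subunits of M phase and S phase and cyclin E1, and ccnb5.L. The M phase kinase cdk1.L had 43.1, 34.8 and 42.1 TPM at stage 8, against 149 and 241 TPM in the egg, and cdk1.S had 37.9, 31.9 and 30.7 TPM at stage 8, against 206 and 198 TPM in the egg. Among those that rose were transcription factors of the E2F family and inhibitors or activators of Cdk1. The E2F family member e2f4.S had 148, 100.3 and 111 TPM at stage 8, against 21.1 and 1.35 TPM in the egg, with the Ueno egg far below the Taira egg. The Cdk1-activating phosphatase cdc25c.S had 72.2, 61.9 and 63.1 TPM at stage 8, against 12.8 and 0.98 TPM in the egg. The repressor e2f6.S had 99.7, 62.2 and 58.1 TPM at stage 8, against 7.38 and 3.26 TPM in the egg, and the E2F partner tfdp2.L had 46.1, 78.3 and 68.2 TPM at stage 8, against 6.46 and 3.51 TPM in the egg. Both copies of pkmyt1, a kinase that inhibits Cdk1, also rose. The median was 0.32 in TPM and -0.39 after scaling. Summed over the list, the level was 12634, 17960.0 and 15336 TPM at stage 8, against 21207 and 27399 TPM in the egg, lower at stage 8 in every library under both scalings.

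Of 27 tested models for meiotic arrest and the anaphase-promoting complex, 6 rose (22.2%) and 2 fell (7.41%), or 8 and 7 with the block, 5 and 3 quantile-normalized. The 2 were both copies of ube2c, the conjugating enzyme that serves the complex. Its L copy had 469, 739 and 874 TPM at stage 8, against 1919.9 and 4197 TPM in the egg. Of the 6 that rose, 4 were core subunits: anapc7.S with 81.3, 68.4 and 67.2 TPM at stage 8 against 15.6 and 0.82 TPM in the egg, anapc4.L with 68.8, 66.8 and 74.4 TPM at stage 8 against 18.4 and 1.9 TPM in the egg, anapc1.S with 59.5, 54.1 and 58.1 TPM at stage 8 against 15.8 and 2.13 TPM in the egg, and anapc7.L. The median was 0.78 in TPM and 0.03 after scaling. The summed level of the list was 2694, 3243 and 3466 TPM at stage 8, against 4198 and 7541 TPM in the egg. It was lower at stage 8 in every library under both scalings. In the egg ube2c.L gave 1919.9 and 4197 TPM of it, so the sum does not give the level of the other members.

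Origin licensing and firing had 4 of 35 tested models higher (11.4%, against 23% of all models) and 7 lower (20%, against 2.96%), or 9 and 11 with the block, 4 and 7 quantile-normalized. The 4 were cdt1.S, mcm8.L, dtl.S and mcm4.S, the last a subunit of the replicative helicase with 32.3, 22.6 and 22 TPM at stage 8, against 6.75 and 0.79 TPM in the egg. The 7 were mcm10.L, gins1.S, ticrr.L, cdc7.L, recql4.L, orc1.L and mtbp.S, which act in helicase activation and origin recognition. The firing factor mcm10.L had 219, 129 and 91.8 TPM at stage 8, against 621 and 293 TPM in the egg. The GINS subunit gins1.S had 46.7, 33.2 and 29.6 TPM at stage 8, against 99.2 and 112 TPM in the egg. The median was 0.17 in TPM and -0.41 after scaling.

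At the replication fork, 8 of 45 tested models rose (17.8%, against 23% of all models) and 3 fell (6.67%, against 2.96%; 16 and 7 with the block, 7 and 3 quantile-normalized). The clamp loader subunit rfc3.L had 128, 129 and 136 TPM at stage 8, against 35.9 and 4.83 TPM in the egg. The pyrimidine enzyme umps.L had 69.2, 65.9 and 95 TPM at stage 8, against 17.1 and 6.72 TPM in the egg. The primase-polymerase subunit pola2.L had 118, 102 and 101 TPM at stage 8, against 32.7 and 15.5 TPM in the egg, and thymidylate synthase tyms.L had 50.2, 47.9 and 56.3 TPM at stage 8, against 19 and 5.88 TPM in the egg. Each of these was above both eggs in all 3 stage 8 libraries, as was every model called higher. The 3 that fell were rrm2.1.L and rrm2.2.L, the small subunit of ribonucleotide reductase, and the polymerase subunit pole2.L. Among 39 tested models of the DNA damage checkpoint and repair, 8 rose (20.5%) and 1 fell (2.56%; 16 and 6 with the block, 6 and 4 quantile-normalized). The end-joining gene xrcc6.L had 92.2, 94.6 and 96.9 TPM at stage 8, against 26.2 and 3.85 TPM in the egg, and the strand-break repair scaffold xrcc1.L had 49.3, 77.9 and 78 TPM at stage 8, against 5.69 and 4.46 TPM in the egg. The Brca2 partner palb2.L had 53.2, 44.4 and 44 TPM at stage 8, against 9.27 and 4.22 TPM in the egg. The 1 that fell was the stress gene gadd45a.S, with 0.88, 0.55 and 1.19 TPM at stage 8, against 12.6 and 9.68 TPM in the egg. The medians of the lists were 0.82 in TPM and 0.07 after scaling for the fork and 0.72 in TPM and -0.03 after scaling for repair. Summed over the fork list, the level was 6224, 6368 and 5912 TPM at stage 8, against 8423 and 6892 TPM in the egg, lower at stage 8 in every library under both scalings.

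Of 30 tested models for CPEB and cytoplasmic polyadenylation 8 rose (26.7%, against 23% of all models) and 1 fell (14 and 4 with the block, 6 and 1 quantile-normalized). The translation repressor patl2.L had 164, 192 and 272 TPM at stage 8, against 56.5 and 3.82 TPM in the egg. The cleavage and polyadenylation subunit cpsf2.L had 39, 23.6 and 18.5 TPM at stage 8, against 3.29 and 0.92 TPM in the egg, and the poly(A) polymerase papolg.L had 50.1, 26.2 and 37.5 TPM at stage 8, against 4.52 and 2.96 TPM in the egg. The RNA helicase ddx6.L, a repressor of stored messages, had 44.1, 16.1 and 16.7 TPM at stage 8, against 3.29 and 1.39 TPM in the egg. The 1 that fell, papd4.L, codes for the cytoplasmic poly(A) polymerase Gld2 and had 51.3, 42.8 and 38.6 TPM at stage 8, against 179.7 and 248 TPM in the egg. The median was 1.26 in TPM and 0.70 after scaling.

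Of 85 tested models for deadenylation and mRNA decay, 17 rose (20%) and 4 fell (4.71%), or 36 and 12 with the block, 14 and 8 quantile-normalized. Uridyltransferases were among the largest: tut1.L had 70.2, 80.8 and 74.2 TPM at stage 8, against 8.53 and 0.67 TPM in the egg, zcchc6.L had 119, 58.6 and 45.3 TPM at stage 8 against 7.62 and 4.86 TPM in the egg, and zcchc11.L had 38.8, 29.3 and 24.3 TPM at stage 8 against 3.9 and 1.56 TPM in the egg. The AU-element binding protein zfp36l1.L had 21, 12.6 and 16.5 TPM at stage 8, against 0.92 and 0.74 TPM in the egg. Both copies of the decapping enzyme dcp2 and of samd4a (the Smaug family) rose too. The 4 that fell were btg4.L, both copies of upf1 and smg6.L. Btg4, an adaptor that recruits the deadenylase to maternal mRNA in mouse, had 297, 227 and 166 TPM at stage 8, against 1126 and 529.7 TPM in the egg. The median was 1.14 in TPM and 0.47 after scaling.

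Of 67 tested models for translation factors 7 rose (10.4%, against 23% of all models) and 1 fell (1.49%), or 22 and 9 with the block, 6 and 2 quantile-normalized. The 7 were eif3a.L, eif3h.S, eif3i.L, eif3l.L and eif3m.S of the eIF3 complex, the nucleotide exchange subunit eif2b3.L, and the elongation factor kinase eef2k.S. The eIF3 subunit eif3i.L had 48.7, 49.5 and 52.7 TPM at stage 8, against 13.5 and 4.29 TPM in the egg, and eif3a.L had 93.7, 115 and 118 TPM at stage 8, against 24.4 and 21.6 TPM in the egg. The 1 that fell was the cap-binding gene eif4e3.L. The median was 0.50 in TPM and -0.24 after scaling. Summed over the list, the level was 9903, 11386 and 11473 TPM at stage 8, against 11815 and 15401 TPM in the egg, lower at stage 8 in every library under both scalings.

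Of 53 tested models for cytosolic ribosomal proteins 0 rose and 2 fell under both scalings by limma (0 and 7 at an unadjusted p under 0.05), against 18 lower after scaling alone, 15 lower with the block and 15 lower quantile-normalized. The median was -0.34 in TPM and -1.05 after scaling. Both copies of rps3a fell, rps3a.L with 10.8, 10.1 and 12.6 TPM at stage 8, against 33.3 and 22.3 TPM in the egg, and rps3a.S with 56.9, 82.7 and 88.9 TPM at stage 8, against 136 and 163 TPM in the egg. Among genes that make ribosomes in the nucleolus, 24 of 92 tested models rose (26.1%) and 0 fell by limma (38 and 1 at an unadjusted p under 0.05). The median was 1.86 in TPM and 1.19 after scaling, the highest of the 32 lists under both scalings, and below that of the maternal transcription factors after quantile normalization (0.80 against 0.84). With the block 54 rose and 1 fell, and quantile-normalized 27 and 4. The summed level was 6908, 6392 and 6288 TPM at stage 8, against 4096 and 3129 TPM in the egg. It was the only list whose sum was higher at stage 8 in every library under both scalings. After scaling the gap was small, with sums of 5135, 5288 and 5260 at stage 8, against 4749 and 4952 in the egg.

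Named members were helicases and assembly factors. The helicase ddx56.L had 167, 168 and 167 TPM at stage 8, against 10.6 and 3.98 TPM in the egg (log2 difference 4.47 ± 0.41 in TPM and 3.77 ± 0.34 after scaling), with the 3 stage 8 libraries nearly level. The helicase ddx18 rose in both copies, ddx18.L with 88.3, 107 and 94.8 TPM at stage 8 against 12.8 and 1.6 TPM in the egg, and ddx18.S with 106, 172 and 192 TPM at stage 8 against 31.6 and 4.23 TPM in the egg. The RNA polymerase I factor ubtf.L had 47.6, 32.8 and 26.7 TPM at stage 8, against 4.54 and 1.05 TPM in the egg. The others included fbl.L for the methyltransferase fibrillarin, pes1.S, nop14.L and both copies of rrs1. Risen members ranged from 1.19 to 3.77 in log2 difference, taken as the smaller of the pair of scalings.

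Nuclear genes of the respiratory chain held 96 tested models, of which 0 rose and 6 fell (6.25%) under both scalings by limma (4 and 13 at an unadjusted p under 0.05), with 10 higher in TPM alone, 21 lower after scaling alone, and 7 and 18 with the block, 4 and 27 quantile-normalized. The median was 0.11 in TPM and -0.51 after scaling. The 6 were uqcrq.S of complex III and ndufa1.S, ndufb4.L, ndufb6.L, ndufs6.L and ndufv2.L of complex I. The complex III subunit uqcrq.S had 12.3, 15.2 and 21.3 TPM at stage 8, against 79.2 and 57.5 TPM in the egg. The complex I subunit genes had 3.87, 3.93 and 4.61 TPM at stage 8 against 28.6 and 12.8 TPM in the egg for ndufv2.L and 13.8, 7.8 and 18.8 TPM at stage 8 against 42.3 and 62.3 TPM in the egg for ndufa1.S. Proteins of the mitochondrial ribosome had 10 of 76 tested models higher (13.2%) and 2 lower (2.63%; 23 and 7 with the block, 6 and 6 quantile-normalized) and a median of 0.57 in TPM and -0.15 after scaling. Among them mrpl22.L had 37.7, 36.3 and 56.5 TPM at stage 8, against 9.31 and 0.77 TPM in the egg, and mrps22.L had 59.9, 57.2 and 80.8 TPM at stage 8, against 18.4 and 8.36 TPM in the egg. The other 2 named were mrpl32.S, with 45.6, 47.3 and 39.8 TPM at stage 8 against 14.9 and 3.52 TPM in the egg, and mrps12.S, with 18.8, 19.6 and 28.1 TPM at stage 8 against 5.21 and 2.46 TPM in the egg.

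Maternal transcription factors that act when the embryonic genome is switched on rose in 24 of 60 tested models (40%, against 23% of all), with 1 lower, atf1.S (28 and 6 with the block, 17 and 1 quantile-normalized). The Pou family gene pou5f3.2.L, of the Oct4 family, had 108, 163 and 197 TPM at stage 8, against 11.1 and 5.63 TPM in the egg. The ternary complex factor elk4.S had 40.0, 31.9 and 32.1 TPM at stage 8, against 1.81 and 0.49 TPM in the egg, and the CCAAT-box subunit nfya.S had 125, 96.1 and 80.6 TPM at stage 8, against 9.98 and 1.78 TPM in the egg. The homeobox gene otx1.L had 152, 135 and 171 TPM at stage 8, against 9.75 and 6.76 TPM in the egg (log2 difference 4.07 ± 0.30 in TPM and 3.36 ± 0.28 after scaling). The share of risen models was the highest of the 32 lists in this fit, but not with the block (46.7%, against 58.7% for the nucleolar list) or quantile-normalized (28.3%, against 30% for cyclins). No egg held more than 11.1 TPM of any of the 4 genes given. In the oocyte library of stages 5 and 6, nfya.S had 40.5 TPM, pou5f3.2.L 135 TPM and otx1.L 348 TPM. There elk4.S had 0.3 TPM, so a maternal store of this copy was not seen. Both copies of elk1, foxo3, kdm5b, klf5, otx1, pou5f3.2 and sox11 rose. Of these, kdm5b codes for an H3K4 demethylase and is counted again among the chromatin enzymes below. The median was 1.05 in TPM and 0.41 after scaling.

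Of 16 tested early zygotic models, out of 91 in the table, 3 rose (18.8%) and 0 fell by limma (8 and 0 with the block, 2 and 0 quantile-normalized, 3 and 0 at an unadjusted p under 0.05). They were both copies of sox17b.1 and ventx3.1.S. All 3 were below 1 TPM in both eggs, so they passed the filter only through stage 8. Such models could hardly be called lower, so these counts give no direction for the list. The other 75 models were below 1 TPM in all but at most 1 library. The general transcription machinery had 29 of 118 tested models higher (24.6%, against 23% of all models) and 5 lower (4.24%, against 2.96%), or 42 and 27 with the block, 23 and 14 quantile-normalized. The higher share is near that of all models, so the members named here are examples and no result about the list. The coactivator subunit taf5l.S had 53.9, 79.9 and 91.8 TPM at stage 8, against 14.2 and 1.96 TPM in the egg. The Mediator subunits had 56.3, 66.2 and 71.8 TPM at stage 8 against 11.5 and 1.84 TPM in the egg for med4.S and 59.5, 72.8 and 76.1 TPM at stage 8 against 7.11 and 4.19 TPM in the egg for med26.S. The pausing factor nelfa.S had 90.5, 74.5 and 81.5 TPM at stage 8, against 9.36 and 4.26 TPM in the egg. Elongation and pausing genes among those that rose were both copies of nelfa, cdc73, cdk12, ell2 and supt6h, and cdk9.S, ccnt1.L, ccnt2.L, ccnk.S and supt5h.S. The TATA-binding protein gene tbp rose in both copies. The median was 0.77 in TPM and 0.07 after scaling, below the 0.88 and 0.30 of all tested models.

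Chromatin enzymes rose in 39 of 118 tested models (33.1%) and fell in 6 (5.08%), or 55 and 15 with the block, 20 and 11 quantile-normalized, with a median of 1.2 in TPM and 0.56 after scaling. The Polycomb ligase ring1.S had 63.2, 57.8 and 62.7 TPM at stage 8, against 11 and 0.90 TPM in the egg. Both copies of the H3K4 demethylase kdm5b were among the largest, kdm5b.S with 92.9, 95.7 and 115 TPM at stage 8 against 16.6 and 2.75 TPM in the egg, and kdm5b.L with 66.9, 61.5 and 67.5 TPM at stage 8 against 8.58 and 2.36 TPM in the egg. Other Polycomb genes that rose were ezh2.S, suz12.S, phf19.S, cbx8.L and both copies of rnf2 and cbx7, while eed.L fell. Both copies of the maintenance DNA methyltransferase dnmt1 fell, dnmt1.L with 314, 449 and 422 TPM at stage 8, against 955 and 1165 TPM in the egg. Of 32 tested models for histones and their chaperones, 3 rose (9.38%) and 0 fell by limma (11 and 6 with the block, 2 and 2 quantile-normalized, 9 and 2 at an unadjusted p under 0.05). They were the H2A.Z chaperone anp32e.S, with 252, 179 and 159 TPM at stage 8 against 54.8 and 6.94 TPM in the egg, the histone mRNA processing gene lsm10.L, with 139.7, 116 and 106 TPM at stage 8 against 35.4 and 8.2 TPM in the egg, and rbbp7.S, with 40.7, 19.5 and 18.3 TPM at stage 8 against 6.83 and 1.6 TPM in the egg. The median was 0.11 in TPM and -0.64 after scaling. The summed level of histones and chaperones was 7990.4, 7317 and 6436 TPM at stage 8, against 10209 and 8183 TPM in the egg, lower at stage 8 in every library under both scalings.

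Splicing factors rose in 17 of 125 tested models (13.6%) and fell in 2 (1.6%), or 33 and 35 with the block, 20 and 9 quantile-normalized, and their median was 0.08 in TPM and -0.65 after scaling. The kinase of splicing factors clk1.L had 214, 94.9 and 83.2 TPM at stage 8, against 20.1 and 2.67 TPM in the egg. The intron-binding helicase aqr.L had 118, 111 and 110.2 TPM at stage 8, against 15.9 and 3.1 TPM in the egg. The splicing coactivator srrm1.S had 85.1, 110.4 and 116 TPM at stage 8, against 15.8 and 4.01 TPM in the egg, and hnrnpul1.S had 158, 167 and 144 TPM at stage 8, against 20.2 and 13.5 TPM in the egg. The 2 that fell were prpf19.S and hnrnpab.S. Of 77 tested models for the nuclear pore and transport, 18 rose (23.4%) and 2 fell (33 and 9 with the block, 17 and 3 quantile-normalized). Risen members were mostly transport receptors, such as the exportins xpo4.S with 38.1, 46.2 and 43.4 TPM at stage 8 against 2.3 and 2.47 TPM in the egg and xpo7.S with 17.2, 19.1 and 26.9 TPM at stage 8 against 3.41 and 0.16 TPM in the egg, and the importin ipo5.S with 62.7, 52.5 and 55.8 TPM at stage 8 against 13.5 and 1.43 TPM in the egg. The 2 that fell were both copies of ndc1, a membrane anchor of the pore, ndc1.L with 28.2, 19.6 and 17.9 TPM at stage 8, against 190.1 and 152 TPM in the egg. The median was 1.03 in TPM and 0.38 after scaling.

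For Wnt and beta-catenin, the pathway that sets the dorsal side, 19 of 57 tested models rose (33.3%, against 23% of all models) and 1 fell, csnk1e.L (26 and 6 with the block, 10 and 1 quantile-normalized). The kinase gsk3b.S, which marks beta-catenin for destruction, had 29.8, 22.4 and 28.6 TPM at stage 8, against 2.22 and 1.01 TPM in the egg. The destruction scaffold axin1.L had 24.7, 22 and 21.5 TPM at stage 8, against 2.47 and 1.28 TPM in the egg, and the tankyrase tnks2.S, which acts on Axin, had 63.8, 46.6 and 38.7 TPM at stage 8, against 5.27 and 2.96 TPM in the egg. The coactivator partner bcl9.L had 46.6, 75.2 and 80.3 TPM at stage 8, against 4.71 and 10.1 TPM in the egg. Among ligands and receptors, wnt5a.L, fzd3.L, fzd5.L, lrp5.L and both copies of fzd6 rose. The median was 1.23 in TPM and 0.65 after scaling.

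For TGF-beta, Nodal and BMP, which pattern the germ layers, 20 of 64 tested models rose (31.2%) and 0 fell by limma (28 and 5 with the block, 11 and 5 quantile-normalized, 24 and 0 at an unadjusted p under 0.05). Of the ligands, bmp2.S had 28.1, 31.6 and 30.9 TPM at stage 8, against 3.42 and 4.33 TPM in the egg. Of the receptors, acvr2b.L had 32.3, 44.4 and 36.5 TPM at stage 8, against 3.6 and 3.94 TPM in the egg, and both copies of acvr2a and acvr2b rose with the Nodal coreceptors tdgf1.1.L and tdgf1.3 in both copies. Of the transducers and their partners, both copies of smad3, smad2.L and foxh1.S rose, the last with 53.6, 72.5 and 86.3 TPM at stage 8, against 9.69 and 10.5 TPM in the egg. Both copies of the inhibitors tgif1 and smad7 rose too. The median was 1.16 in TPM and 0.51 after scaling.

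For Fgf, Ras and MAP kinase, 21 of 73 tested models rose (28.8%) and 1 fell, the phosphatase gene dusp1.S (30 and 3 with the block, 11 and 7 quantile-normalized). The receptor adaptor frs2.S had 54, 31.2 and 31 TPM at stage 8, against 3.15 and 2.39 TPM in the egg, and the kinase akt1.S had 31.2, 18.3 and 20.4 TPM at stage 8, against 2.32 and 0.54 TPM in the egg. The Ras inhibitor spred2.L had 26.8, 20.6 and 21.3 TPM at stage 8, against 2.24 and 0.89 TPM in the egg, and the lipid kinase subunit pik3ca.L had 41.2, 13.3 and 10.1 TPM at stage 8, against 2.99 and 0.99 TPM in the egg, highest in the Taira embryos. The receptor genes igf1r and erbb2 rose in both copies and fgfr2.L and fgfr4.S in 1. For Notch, polarity and adhesion 18 of 69 tested models rose (26.1%) and 2 fell, itga5.L and numb.L (27 and 16 with the block, 12 and 6 quantile-normalized). The Fringe gene lfng.S, described above, was among the risen members. The medians were 0.99 in TPM and 0.46 after scaling for Fgf and 0.69 in TPM and -0.02 after scaling for Notch and adhesion. Summed over Notch and adhesion, the level was 7083, 8998 and 9704 TPM at stage 8, against 10068 and 15228 TPM in the egg. It was lower at stage 8 in every library under both scalings. More models of this list rose than fell, so the sum does not give the change of a typical member.

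RNAs anchored in the vegetal cortex or germ plasm moved both ways: 7 of 32 tested models rose (21.9%) and 4 fell (12.5%), or 9 and 9 with the block, 5 and 6 quantile-normalized. Those that rose were both copies of otx1 and fam43a, sox7.L, tdrd7.L and piwil2.L. The germ granule gene tdrd7.L had 70.9, 56 and 49.3 TPM at stage 8, against 17 and 3.64 TPM in the egg, and fam43a.S had 29.7, 23.8 and 24.6 TPM at stage 8, against 1.63 and 0.89 TPM in the egg. Those that fell were spire1.S, rbpms2.L (Hermes), grip2.L and mael.L. The actin nucleator spire1.S had 67.3, 72.7 and 51.6 TPM at stage 8, against 382 and 464 TPM in the egg (log2 difference -2.72 ± 0.28 in TPM and -3.47 ± 0.34 after scaling). The germ plasm RNA grip2.L had 57.8, 64.6 and 42.6 TPM at stage 8, against 119 and 112 TPM in the egg. The median was 0.44 in TPM and -0.27 after scaling. Summed over the list, the level was 3350.1, 3394 and 3069 TPM at stage 8, against 4779.7 and 4138 TPM in the egg, lower at stage 8 in every library under both scalings. Oocyte and egg coat genes had 20 tested models, of which 3 rose (15%) and 0 fell by limma (6 and 0 with the block, 3 and 1 quantile-normalized, 4 and 0 at an unadjusted p under 0.05), with a median of 1.01 in TPM and 0.43 after scaling. They were both copies of the oocyte growth factor gdf9, gdf9.L with 181, 138 and 128 TPM at stage 8 against 27.8 and 10.4 TPM in the egg, gdf9.S with 98.9, 89.9 and 78.8 TPM at stage 8 against 31.4 and 18.4 TPM in the egg, and the zona glycoprotein zpax.L with 88.5, 87.6 and 106 TPM at stage 8 against 39.5 and 15.1 TPM in the egg.

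Ubiquitin conjugation and the proteasome formed the largest list, with 103 of 342 tested models higher (30.1%) and 13 lower (3.8%), or 167 and 28 with the block, 61 and 33 quantile-normalized, and a median of 1.28 in TPM and 0.67 after scaling. Beside peli2.S, the conjugating enzyme ube2w.S had 98.2, 57.3 and 67 TPM at stage 8, against 8.12 and 0.85 TPM in the egg, and trim24.1, a member of the TRIM family, had 39.9, 41.2 and 32.8 TPM at stage 8, against 1.23 and 1.23 TPM in the egg. The 13 that fell included trim37, ube2c and ube2n in both copies, and usp28.L. The enzymes that charge tRNA and the chaperones rose in 38 of 148 tested models (25.7%) and fell in 3 (75 and 11 with the block, 29 and 5 quantile-normalized), with a median of 1.28 in TPM and 0.69 after scaling. The lectin chaperone canx.S had 84.9, 44 and 30.6 TPM at stage 8, against 5.02 and 0.56 TPM in the egg, and hspa5.L, the Hsp70 of the endoplasmic reticulum (BiP), had 119.8, 85 and 104 TPM at stage 8, against 26 and 1.93 TPM in the egg. The methionyl-tRNA synthetase gene mars.L had 29.4, 19.2 and 23.5 TPM at stage 8, against 1.83 and 0.33 TPM in the egg, and dnaja3.L had 71.7, 64 and 68 TPM at stage 8, against 8.82 and 2.73 TPM in the egg. The 3 that fell were ppih.L, dnajb9.S and hsp90ab1.S.

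Membrane traffic and cytokinesis, chosen in part by name stems that also take in arl6ip1 and the chromatin gene vps72, had 51 of 289 tested models higher (17.6%) and 16 lower (5.54%), or 111 and 43 with the block, 37 and 36 quantile-normalized, and a median of 0.86 in TPM and 0.23 after scaling. The gene rhov rose in both copies: rhov.L had 31.8, 25.1 and 26.3 TPM at stage 8, against 1.04 and 0.41 TPM in the egg, and rhov.S had 7.41, 18.3 and 21.7 TPM at stage 8, against 0 and 0 TPM in the egg, listed at 0 in both eggs. Both copies of the COPII gene sec23b and of the tethering gene vps51 rose. Both copies of rnd3, sept9 and snx10 fell. For lipid and sugar enzymes 11 of 71 tested models rose (15.5%) and 2 fell, both copies of zdhhc1 (26 and 6 with the block, 6 and 5 quantile-normalized). The phosphatidate phosphatase lpin1.L had 26.4, 16.6 and 17.2 TPM at stage 8, against 2.6 and 0.42 TPM in the egg. The pyruvate dehydrogenase kinases had 10.9, 11.9 and 10.6 TPM at stage 8 against 1.93 and 0.59 TPM in the egg for pdk3.S and 12.8, 11.4 and 13.6 TPM at stage 8 against 2.98 and 1.83 TPM in the egg for pdk1.S. The median was 0.94 in TPM and 0.35 after scaling.

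Genes of apoptosis, a pathway held in check until gastrulation, rose in 8 of 24 tested models (33.3%) and fell in 0 by limma (11 and 1 with the block, 5 and 2 quantile-normalized, 10 and 0 at an unadjusted p under 0.05), with a median of 0.85 in TPM and 0.26 after scaling. They act on both sides of the pathway. The nuclease inhibitor dffa.L had 88, 59.7 and 39.3 TPM at stage 8, against 12.1 and 1.57 TPM in the egg, and its nuclease partner dffb.S rose too. The death receptor adaptor fadd.L had 15.5, 15.8 and 19.7 TPM at stage 8, against 2.82 and 0.09 TPM in the egg, and the inhibitor-of-apoptosis antagonist diablo.L had 26.4, 14.6 and 14.8 TPM at stage 8, against 1.8 and 0.56 TPM in the egg. The survival gene mcl1.S had 31.6, 22.5 and 31.4 TPM at stage 8, against 3.04 and 2.29 TPM in the egg. Over the 112 named members of the lists adjusted p ran from 0.00702 to 0.045 in TPM and from 0.0116 to 0.0497 after scaling (limma).

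**Figure D3:**
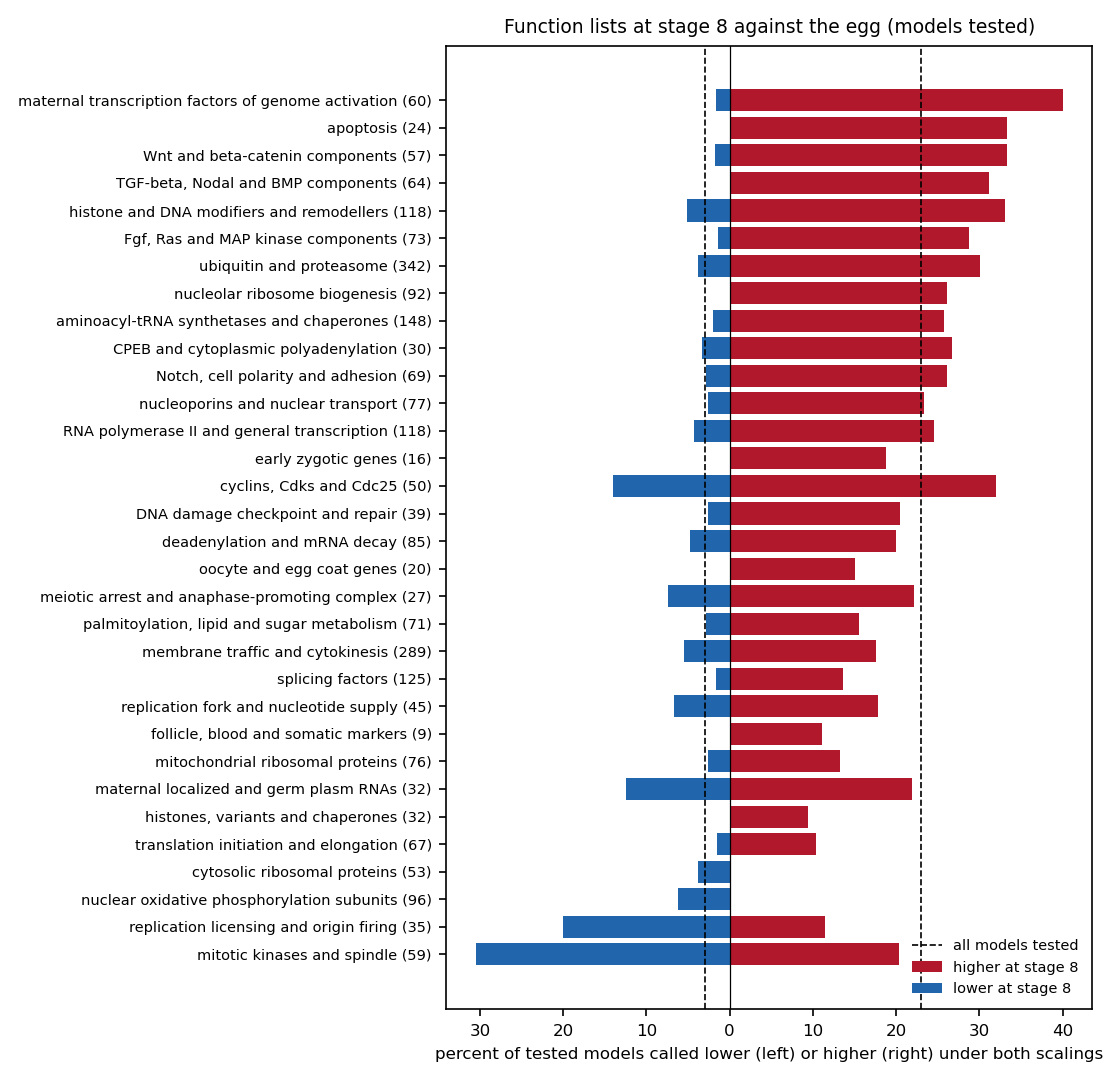
Percent of tested models of each of the 32 function lists called higher (red, right) or lower (blue, left) at stage 8 than in the egg under both scalings, with the number of tested models in parentheses and lists ordered by the difference of the shares. Dashed lines mark all tested models, at 23% higher and 2.96% lower. Maternal transcription factors reach 40% higher at the top, and mitotic kinases and spindle 30.5% lower at the bottom.

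The table held 8021 symbols with 1 L and 1 S model, of which 4920 pairs had a summed level of at least 2 TPM in 2 libraries and 3806 had both copies tested. Both copies rose in 527 pairs (10.7%) and both fell in 62 (1.26%), while 4 pairs had copies called in opposite directions (0.0813%). In 1078 pairs 1 copy rose and the other was not called, 553 times the L copy and 525 times the S copy. In 163 pairs 1 copy fell, 82 times the L copy and 81 times the S copy. With clutch as a block both copies rose in 1059 pairs, both fell in 258 and 58 were opposite, and with the block but without the second Ueno library these were 718, 178 and 25. In the fit that does not use the clutch, no pair had a called copy without either Ueno library of stage 8. Without the Taira stage 8 library the counts were 271, 41 and 1, and without the Ueno egg 278, 53 and 2. The log2 differences of the copies had a Pearson r of 0.625 across the 3806 pairs after scaling. Copies share the libraries and, where their sequences are alike, reads that RSEM divides between them, so this value describes the pairs and splits between near-identical copies are uncertain.

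Where the L copy alone rose and the S copy was tested (425 pairs), the S copy was higher under both scalings in 307, with a median log2 difference of 1.11 in TPM and 0.54 after scaling. Where the S copy alone rose (414 pairs), the L copy was higher in 284, with medians of 1.04 and 0.42. Higher and lower mean the sign only for these partner copies. Medians over all tested models were 0.88 in TPM and 0.30 after scaling, not far below those of the partners. The share of all models above 0 is not given here, so these counts are no result about the pairs. Where the L copy alone fell (63 pairs) the S copy was lower in 44, with medians of -0.57 in TPM and -1.23 after scaling. Where the S copy alone fell (71 pairs) the L copy was lower in 55, with medians of -0.49 and -1.25. The ratio of the copies itself changed in 248 of the 425, 234 of the 414, 27 of the 63 and 31 of the 71. Over all pairs tested it changed in 28.4%. These sets were chosen for 1 called and 1 uncalled copy in the same libraries, which favours a changed ratio. The counts therefore do not show whether copies moved apart.

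The pairs that rose most in both copies, ranked by the smaller change among 448 eligible, were tp53bp2, arih2, nuak2, rhov, cdk5r2, lin9, racgap1 and LOC100485168. The other copies of arih2, nuak2 and cdk5r2 joined those named above: arih2.L had 42.2, 25.2 and 34.5 TPM at stage 8, against 1.45 and 0.17 TPM in the egg, nuak2.S had 117, 71.6 and 54.7 TPM at stage 8, against 8.14 and 0.86 TPM in the egg, and cdk5r2.L had 89.5, 94.8 and 102 TPM at stage 8, against 10.6 and 1.48 TPM in the egg. The gene lin9, of the MuvB complex that controls cell cycle genes, had 127, 144 and 135 TPM at stage 8, against 20.4 and 1.07 TPM in the egg for the L copy. Its S copy had 74.5, 86.9 and 91.5 TPM at stage 8, against 12 and 0.92 TPM in the egg. In LOC100485168, which has no gene name, the L copy had 23.7, 33.3 and 42.4 TPM at stage 8, against 1.13 and 1.5 TPM in the egg. Its S copy had 46.3, 74.4 and 96.5 TPM at stage 8, against 2.94 and 3.56 TPM in the egg. The share of the L copy stayed close in racgap1, at 84.3, 83.6 and 82.4% at stage 8, against 86.7 and 86.9% in the egg, and in lin9, at 63, 62.4 and 59.6% at stage 8, against 63 and 53.8% in the egg. In none of the 8 was the change of the ratio called (limma, adjusted p from 0.237 to 0.942), which does not show that the copies moved alike.

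The pairs that fell most in both copies, among 59 eligible, were arl6ip1, cep152-like, Xetrov90023592m, kif11, rfwd3, Xetrov90010211m, plk3 and cdk1. The stress and cell cycle kinase plk3 had 44.6, 28.1 and 32.7 TPM at stage 8, against 252 and 178 TPM in the egg for the L copy. Its S copy had 39.7, 25.7 and 34.6 TPM at stage 8, against 152 and 182 TPM in the egg. The repair ligase rfwd3.S had 23.7, 44.6 and 29.2 TPM at stage 8, against 138 and 259 TPM in the egg, close to its L copy. In Xetrov90010211m the L copy had 29.4, 37.7 and 38.4 TPM at stage 8, against 173 and 248 TPM in the egg, and in Xetrov90023592m the S copy had 7.96, 5.32 and 3.23 TPM at stage 8, against 41.3 and 40.0 TPM in the egg. The ratio was called in none of the 8 (limma, adjusted p from 0.0818 to 0.804). Adjusted p for the single copies ran from 0.00702 to 0.0239 in the 8 risen pairs and from 0.00702 to 0.029 in the 8 fallen pairs (limma).

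By list, counts of pairs are read against the shares of all pairs, 10.7% with both copies higher and 1.26% with both lower. Of 19 spindle pairs 6 fell in both copies (31.6%: aurka, incenp, kif11, mad2l1, plk1 and plk4) and 2 rose (10.5%: prc1 and racgap1). Of 23 cyclin and Cdk pairs 3 fell (13%: ccne1, cdk1 and cdk2) and 4 rose (17.4%: cdc25c, e2f4, e2f6 and pkmyt1). Of 26 pairs of maternal transcription factors 7 rose in both copies (26.9%, the demethylase gene kdm5b among them) and 0 fell. Of 41 pairs of the general transcription machinery 8 rose (19.5%: cdc73, cdk12, ell2, med26, med4, nelfa, supt6h and tbp) and 0 fell. Of 31 TGF-beta pairs 6 rose (19.4%) and 0 fell, and of 142 ubiquitin pairs 26 rose (18.3%) and 3 fell (2.11%). No pair had both copies called among 43 of the respiratory chain and 22 of the mitochondrial ribosome. Of 30 nucleolar pairs 3 rose in both copies (10%: ddx18, rrs1 and ubtf) and 13 in 1 copy. Over all 4920 pairs, 1 copy rose and the other was not called in 1078. Counts of 1 risen copy are not given for the other lists. With so few pairs a list, a share near that of all pairs is no result about the list.

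**Figure D4:**
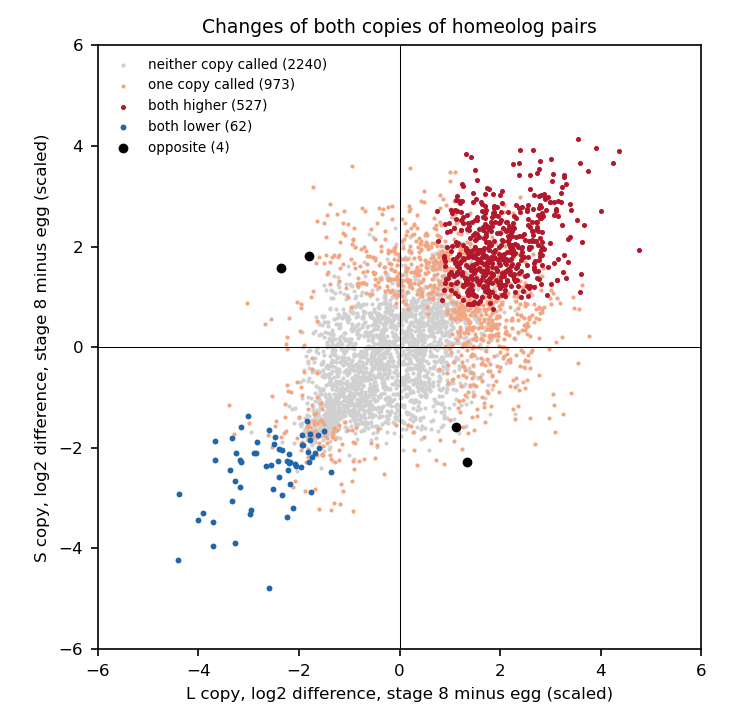
Log2 difference, stage 8 minus egg after median-of-ratios scaling, of the S copy (vertical axis) against the L copy (horizontal axis) in the 3806 homeolog pairs with both copies tested. Red points are the 527 pairs with both copies called higher, blue points the 62 with both lower and black points the 4 called in opposite directions. Pale orange points are the 973 with 1 copy called and grey points the 2240 with neither. The Pearson r of the copies is 0.625.

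Copies called in opposite directions were few. The nuclear cap-binding gene ncbp1 exchanged its main copy: ncbp1.L (Xelaev18006494m) had 114, 107 and 92 TPM at stage 8, against 23.7 and 23.7 TPM in the egg. Its partner ncbp1.S (Xelaev18009967m) had 39.3, 34.3 and 31 TPM at stage 8, against 101 and 106 TPM in the egg. The L share of the summed TPM was therefore 74.4, 75.7 and 74.8% at stage 8, against 19.1 and 18.3% in the egg, and the change of the log2 ratio was 3.63 ± 0.21 in TPM and 3.64 ± 0.21 after scaling. The interferon receptor family gene ifngr2.1 went the other way. Its L copy (Xelaev18011489m) had 21, 22.4 and 21.3 TPM at stage 8, against 50.8 and 41.8 TPM in the egg, and its S copy (Xelaev18014304m) had 30.6, 23.8 and 24.4 TPM at stage 8, against 7.2 and 2.02 TPM in the egg. The third pair, the RNA-binding gene carhsp1, kept S as the main copy: carhsp1.S (Xelaev18047475m) had 160.1, 184 and 190.1 TPM at stage 8, against 304 and 334 TPM in the egg. The low carhsp1.L (Xelaev18045120m) had 4.12, 3.48 and 4.06 TPM at stage 8, against 1.21 and 0.31 TPM in the egg. The other pair, the proteasome assembly gene psmg4, was too low for the naming rule and was picked after its values were seen, with psmg4.L at 0, 0 and 0 TPM at stage 8, against 4.16 and 2.2 TPM in the egg. Its S copy had 5.86, 5.89 and 3.93 TPM at stage 8, against 1.66 and 0 TPM in the egg. For the 3 pairs within the rule adjusted p of the ratio ran from 0.0036 to 0.013 in TPM and from 0.00407 to 0.0135 after scaling (limma).

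The ratio of the copies changed in 1398 of 4920 pairs (28.4%), 704 towards L (14.3%) and 694 towards S (14.1%), in a test that depends little on scaling (limma on the log2 ratio). With the block these were 1180 and 1160, without the Taira library of stage 8 396 and 415, without the Ueno one 196 and 195, and without the second Ueno one 121 and 139, or 695 and 687 with the block. The median log2 ratio of L to S was 0.123, 0.125 and 0.109 at stage 8, against 0.137 and 0.135 in the egg. In 827 of the 1398 the copies stood closer to each other at stage 8 than in the egg and in 571 further apart, while over all 4920 pairs 2593 stood closer at stage 8. In 294 of the 1398 pairs with a changed ratio, the main copy of every stage 8 library differed from that of every egg. Among these 294, L was the main copy at stage 8 in 156 and S in 138. Pairs whose ratio was not called are not counted in this.

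The largest changes of the ratio towards L came from pairs whose L copy rose. The kinase clk1 had an L share of 98.2, 97.3 and 97% at stage 8, against 65.7 and 34.1% in the egg (change of the log2 ratio 4.84 ± 0.54 in TPM and 4.79 ± 0.55 after scaling), its S copy being low in all 5 libraries. The splicing gene smu1 had an L share of 32.1, 40.9 and 44.5% at stage 8, against 1.64 and 2.68% in the egg, where smu1.L had 31, 31.8 and 27.7 TPM at stage 8, against 1.83 and 1.43 TPM in the egg. In the COMM domain gene commd2 the L share was 68.6, 68.4 and 75.5% at stage 8, against 23.3 and 3.0% in the egg, and in pid1-like it was 77, 81.2 and 82.5% at stage 8, against 21.7 and 9.65% in the egg, so both changed their main copy. The BAR domain gene bin3 had an L share of 44.7, 43.9 and 39.4% at stage 8, against 3.26 and 0.42% in the egg, and the WD-repeat gene dcaf7 one of 39.5, 39.6 and 41.9% at stage 8, against 6.63 and 2.16% in the egg. Xetrov90022373m, which has no gene name, had an L share of 24.2, 34.9 and 36.6% at stage 8, against 3.73 and 0.48% in the egg. All 7 L copies rose, and the S copy was called under both scalings in none of the 7. After scaling alone, the S copies of clk1, Xetrov90022373m, bin3, smu1, pid1-like and commd2 were lower (limma, adjusted p under 0.05). That of dcaf7 did not pass.

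The largest changes towards S mirrored this. In LOC100493854 the L share was 38.3, 36.5 and 31.8% at stage 8, against 94.9 and 94.6% in the egg (change of the log2 ratio -4.87 ± 0.24 in TPM and -4.90 ± 0.24 after scaling), and the S copy had 97.5, 165 and 178 TPM at stage 8, against 5.68 and 12.8 TPM in the egg. The transcription factor elk4 had an L share of 35.6, 23.3 and 20.1% at stage 8, against 93.3 and 94.4% in the egg, its L copy being not called with 22.2, 9.71 and 8.09 TPM at stage 8, against 25.1 and 8.27 TPM in the egg. The podosome adaptor sh3pxd2b had an L share of 58.3, 53 and 49.4% at stage 8, against 98.6 and 96.8% in the egg, and the dynein assembly gene spag1 one of 22.3, 42.9 and 43.4% at stage 8, against 81.2 and 96.7% in the egg. Cyclin K, partner of the kinases that phosphorylate RNA polymerase II, had an L share of 69.6, 78.7 and 76.3% at stage 8, against 96.3 and 99.3% in the egg, so L remained the main copy. The same held for the polarity cadherin celsr2, at 75.3, 89.9 and 90.3% at stage 8, against 99.4 and 99.8% in the egg, and for vps72, at 80.7, 85.8 and 87.7% at stage 8, against 96.6 and 99.8% in the egg. In Xetrov90013347m the L share was 86.7, 90.9 and 91.6% at stage 8, against 97.8 and 99.8% in the egg, and this was the 1 pair of the 8 in which the L copy fell while the S copy was not called. In the other 7 the S copy rose and the L copy was not called under both scalings. After scaling alone, the L copies of LOC100493854, sh3pxd2b and celsr2 were lower (limma, adjusted p under 0.05). Those of elk4, ccnk (cyclin K), spag1 and vps72 did not pass. Adjusted p of the ratio ran from 0.00513 to 0.0118 over the 7 pairs towards L and from 0.0028 to 0.0271 over the 8 towards S (limma, both scalings).

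By function, counts of changed ratios are read against 14.3% towards L and 14.1% towards S over all pairs. With so few pairs a list, a share near these is no result about the list. Of 43 respiratory chain pairs 5 moved towards L (atp5f1, ndufs1, ndufs3, sdha and uqcrc2) and 4 towards S (atp5h, ndufa8, ndufb6 and ndufv2), or 11.6% and 9.3%. Of 48 splicing pairs 6 and 10 did (12.5% and 20.8%), and of 52 pairs of chromatin enzymes 8 and 7 (15.4% and 13.5%). Of 26 pairs of maternal transcription factors 8 moved towards L (e2f1, elk1, ets2, mycn, otx1, smad2, sox3 and sox7) and 3 towards S (elk4, foxh1 and zbtb33), or 30.8% and 11.5%. Of 19 spindle pairs 1 moved towards L and 5 towards S (aurka, cdca8, dlgap5, ect2 and incenp), or 5.26% and 26.3%. Of 24 pairs of cytosolic ribosomal proteins 1 fell in both copies, rps3a, and in 0 was the ratio called.

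**Figure D5:**
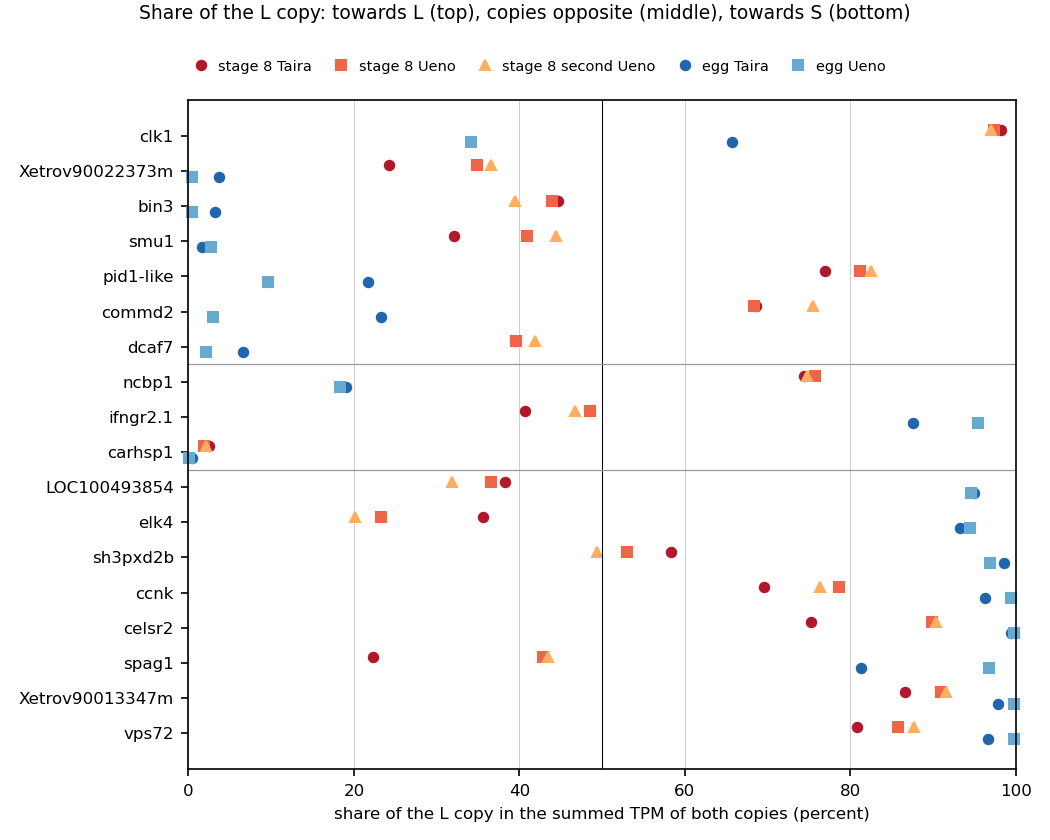
Share of the L copy in the summed TPM of both copies (horizontal axis, percent) in each library for 7 pairs with a large change towards L (top), 3 pairs with copies called in opposite directions (middle) and 8 pairs with the largest change towards S (bottom). Red to orange points are stage 8 and blue points the eggs, and ncbp1 in the middle stands at 74.4, 75.7 and 74.8% at stage 8, against 19.1 and 18.3% in the egg.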

How the data were processed

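Per gene model the authors' table gives deposited TPM values, made with BWA 0.7.10 and RSEM 1.2.19 per the submitters' processing notes; the deposited table's label names the cDNA set, and settings are not given in the sources used here. TPM keeps no read counts, so depth is unknown and no counting interval can be given. The 5 columns were used as deposited and after median-of-ratios scaling. A model was tested if 2 or more of the 5 libraries reached 1 TPM, on log2(TPM + 1) by limma 3.58.1 (R 4.3.3; trended eBayes, two-sided, Benjamini-Hochberg over all models, adjusted p under 0.05 under both scalings). Homeolog pairs (1 L and 1 S model per symbol, summed TPM at least 2 in at least 2 libraries) were tested on the log2 ratio of the copies. The methods were tested on simulated data.

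The libraries, the lists and the naming rules were chosen with earlier results of these data known. The text names the 12 largest changes each way (a symbol, groups apart, mean TPM at least 10 in the higher group), up to 4 called members of each of 32 lists by the same minimum, and up to 8 pairs of each kind with a summed mean TPM of at least 20. Some genes that these rules name are not reported here. Other members are named as full sets of called genes or as further examples chosen after their values were seen.

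The clutch label pairs eggs with embryos. The difference between clutches in the egg correlated with that at stage 8 at r = 0.60 over the tested models (0.59 to 0.61 over both scalings and either Ueno library). The value was alike with the second Ueno library, of a later set, and the Taira and Ueno labels also belong to different sets by title. It therefore cannot tell a shared mating from a shared set or source. No pair of the 5 libraries held identical values, and 0 columns of the table were left without a sample. Alternatives were quantile normalization, factors from models of at least 10 TPM, pseudocounts (0.1 and 5), the filter on low values removed or raised to 5 TPM, the clutch block with all libraries and without either Ueno library of stage 8, no trend, all stages in 1 fit (without the library labelled stage 40 Ueno), and each library left out. No chromosome positions or sequences were used here.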

Additional observations from a re-analysis of the deposited data

How the results depend on the processing

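No call reversed its direction under any alternative, over the called models, the named genes and the named pairs. The groups of all called models did not overlap, so leaving out a library could not reverse a model's call, and this is no support for the calls. Under the clutch as a replicate block 7428 models were higher and 2256 lower under both scalings (2256 lower in TPM alone, 7428 higher and 5224 lower after scaling alone), 1180 and 1160 ratios moved towards L and S, both copies were higher in 1059 pairs and lower in 258, and 58 pairs were opposite. All 4362 higher and 560 lower models kept their call there. The clutch block without the second Ueno library gave 5590 higher and 1498 lower models under both scalings, 1499 lower in TPM alone and 3965 after scaling alone, with 718 pairs higher, 178 lower and 25 opposite, and kept 4180 higher and 550 lower calls. The clutch block without the first Ueno library, chosen after seeing the data, gave 5740 higher and 1773 lower models (1773 lower in TPM alone, 4169 after scaling alone), 739 pairs higher, 216 lower and 32 opposite, and kept 4225 and 542 calls. Quantile normalization, which takes the place of either scaling, gave 2579 higher and 2310 lower models, 251 pairs higher, 200 lower and 21 opposite, and kept 2350 of the higher and 463 of the lower calls. By its construction that setting gives every library the same distribution, so it does not carry the median shift of 0.88 seen in TPM. Scaling factors from models of at least 10 TPM gave 6529 higher models under both scalings and a median log2 difference of 0.76 after scaling. They gave 854 lower models after scaling alone, 914 pairs higher and 15 opposite. With no filter on low values 30560 models were tested, and 2887 were higher under both scalings and after scaling alone, 1602 were lower after scaling alone, 265 pairs were higher, 38 lower and 2 opposite. A pseudocount of 0.1 gave 2 opposite pairs, and all stages in 1 fit gave 3936 models lower after scaling alone and 8 opposite pairs. The cause of these moves was not tested.

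With each library left out in turn and clutch not used, models higher under both scalings ran from 0 to 6100 and lower from 0 to 646. In TPM alone the ranges were 2921 to 8792 higher and 114 to 646 lower, and after scaling alone 0 to 6106 higher and 0 to 3307 lower. Ratios towards L ran from 121 to 987 and towards S from 139 to 959. Pairs higher in both copies ran from 0 to 783, lower from 0 to 74 and opposite from 0 to 22. The 0 arose without the Ueno or without the second Ueno library of stage 8, in which all 148 called named models lost their call. With the clutch block they all kept it without the second Ueno library, and 1, rps3a.L, lost it without the first. Without the Taira library of stage 8 35 of them did, without the Ueno egg 26, without the Taira egg 6, with no filter 37 and under quantile normalization 14. A fit that leaves 1 egg assumes that it varies like the stage 8 libraries.

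With 2 eggs and 3 embryo libraries, of which 2 share a clutch label, the spread behind each test is itself poorly known, and calls are made mostly at large changes. TPM is a share of the library, so neither scaling gives RNA per embryo. Depth is unknown, and low values cannot be given a limit of detection. Reads of near-identical copies, and of overlapping or antisense genes in these unstranded libraries, cannot be told apart.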

Other observations

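The oocyte library of stages 5 and 6 and the stage 9 libraries entered no comparison, and their levels are given as values for the models called between stage 8 and the egg. The 4362 higher models had medians of 24.5, 22.1 and 22.6 TPM at stage 8, against 4.37 and 1.58 TPM in the eggs, with 13.7 TPM in the late oocyte library and 25.3 and 24.6 TPM at stage 9 (Taira and Ueno). The 560 lower models had medians of 40.6, 39.0 and 38.0 TPM at stage 8, against 108 and 113 TPM in the eggs, with 39.6 TPM in the late oocyte library and 40.3 and 36.2 TPM at stage 9. Over all tested models the medians were 24.6, 21.4 and 20.9 TPM at stage 8, against 11.6 and 5.97 TPM in the eggs, with 15.1 TPM in the late oocyte library and 25.5 and 23.0 TPM at stage 9. Since these sets were chosen on the eggs, the distance of other libraries from the eggs is in part fixed by that choice.

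Levels of 6 of the named genes outside the comparison are added here. The corepressor gene tgif1.L had 12.0 TPM in the late oocyte library and 50 and 56.9 TPM at stage 9, and the licensing factor gene cdt1.S had 43.8 TPM and 249.6 and 209 TPM. The mitotic kinase gene aurka.L had 319.9 TPM in the oocyte library and 103 and 79.9 TPM at stage 9, and the centrosomal ligase gene trim37.S had 42.0 TPM in the oocyte library and 14.5 and 7.82 TPM at stage 9. The centralspindlin gene racgap1.L had 94.4 TPM in the oocyte library and 332 and 351 TPM at stage 9, and the helicase gene ddx56.L had 82.9 TPM in the oocyte library and 177 and 186 TPM at stage 9. The oocyte values have no replicate.

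The embryo libraries of the same clutch label lay closer together than those of different labels. After scaling, the median absolute difference in log2(TPM + 1) was 0.19 between the Ueno and second Ueno libraries of stage 8, 0.42 between the Taira and Ueno libraries, 0.50 between the Taira and second Ueno libraries, and 0.70 between the eggs.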
